A study of Mus musculus with 2 samples.

Results

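The 10 genes described here are direct targets of the transcription factor p53: Cdkn1a, Phlda3, Mdm2, Ccng1, Bax, Trp53inp1, Eda2r, Gdf15, Zmat3 and Sesn2. They were taken by symbol, and each matched 1 row of the 28692 genes listed for both libraries. One library was made from lungs of Lepr-Cre;Rosa26-tdTomato mice given bleomycin, a drug that breaks DNA strands and scars the lung, and 1 library from mice of that genotype given saline. The mice of both groups were 8 to 10 weeks old, and both groups carried the reporter, which Cre under the Lepr (leptin receptor) gene switches on for good. Live tdTomato-positive cells were sorted, so a cell could be included because an ancestor of it, and not the cell itself, had used the Lepr gene. The labels state neither the number of mice per library nor the dose or the day of collection.

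p53 is a sensor of DNA damage and other stress that is held low by the ubiquitin ligase Mdm2. When damage signalling frees it from Mdm2, it binds paired decamers in the DNA near its target genes and raises their transcription. Its targets stop the cell cycle, feed back on p53 itself, or push a cell towards death, and bleomycin is a classic activator of the pathway in fibroblasts.

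A design of 1 library per group allows no test between groups, so every comparison gives the level in both libraries with its counting interval. The bleomycin library held 4308 kept cells with a median of 12300 UMIs (unique molecules counted per cell) and the saline library 5195 cells with a median of 6302. Levels are UMIs per 1000000 UMIs of a cell class in a library (UPM). They count molecule ends at the 3' side, and levels of different genes are not compared. A gene was called higher or lower when the ratio was at least 2-fold, with at least 50 UMIs and 20 UPM in the higher library. A 1.5-fold rule was the alternative. Intervals are exact at 95% and cover counting error only. A class name stands for cells that resemble that type by marker genes. Fibroblasts made up 3516 of 4308 bleomycin cells (81.6%) and 3562 of 5195 saline cells (68.6%). All 9 general fibroblast markers were detected in them, summing to 19518 UPM after bleomycin and 9349 UPM after saline. Other classes compared were alveolar macrophages (337 bleomycin and 640 saline cells), endothelial cells (186 and 155) and smooth muscle cells (99 and 102). The sort aimed at the Lepr lineage, and its purity was not tested. The libraries shared 33 barcode sequences.

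The search for p53 elements is shown first, since such an element is the DNA through which p53 acts on these genes. The 300 bases around each RefSeq start (250 before and 50 after it, build GRCm38.p6) were available for 8 of the 10 genes, all but Trp53inp1 and Zmat3. They were searched on both strands for the p53 consensus, a pair of decamers with no spacer, with the core C and G of each decamer kept and at most 2 other mismatches. Of the 8 genes, 2 held such an element, Cdkn1a and Ccng1, against 106 of 27025 genes in the table (0.392%). Both had 1 mismatch, and at most 1 mismatch was found in 22 of the 27025 genes (0.0814%). Of 29 other p53 targets in the table, 3 held an element (Rps27l, Ckap2 and Gtse1). The elements are printed 5' to 3' with the core of each decamer in capitals.
Cdkn1a element: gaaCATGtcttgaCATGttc
Ccng1 element: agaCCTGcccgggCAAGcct
Cdkn1a spans chr17:29090976-29100727 (+) and Ccng1 chr11:40748552-40755311 (-) in GENCODE vM21, and both elements lie just upstream of the annotated gene. The Cdkn1a element lies on the + strand at chr17:29090928-29090947, from 51 to 32 bases before the upstream of its 2 RefSeq starts. It is 2841 to 2822 bases before the second start, whose own 300 bases held no match. The Ccng1 element lies on the - strand at chr11:40755462-40755481, from 195 to 176 bases before the gene's start. Because the paired decamer reads nearly alike on both strands, each of these sites was matched on both. The 300 bases of each promoter follow, with the element in capitals.
Cdkn1a promoter, chr17:29090729-29091028 (+): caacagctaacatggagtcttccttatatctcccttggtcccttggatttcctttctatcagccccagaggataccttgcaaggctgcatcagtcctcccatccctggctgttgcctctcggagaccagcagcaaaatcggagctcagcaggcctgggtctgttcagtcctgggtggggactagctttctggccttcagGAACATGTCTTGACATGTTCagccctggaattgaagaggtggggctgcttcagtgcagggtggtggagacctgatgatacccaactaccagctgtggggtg
Ccng1 promoter, chr11:40755237-40755536 (-): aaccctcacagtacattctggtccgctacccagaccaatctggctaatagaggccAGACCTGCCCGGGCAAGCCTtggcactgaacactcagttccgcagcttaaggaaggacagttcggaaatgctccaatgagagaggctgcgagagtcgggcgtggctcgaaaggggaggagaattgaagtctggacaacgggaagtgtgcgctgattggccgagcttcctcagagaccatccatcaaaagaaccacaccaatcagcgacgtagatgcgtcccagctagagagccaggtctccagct
A match describes the letters only. For the other 6 genes the window held no match, which leaves unread every base outside it, such as introns.

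Summed over all fibroblasts, the p53 targets differed little between the libraries, and none passed the 2-fold rule in either direction. Of the 10 targets, 7 reached the minimum level and could be called. Among the 5883 genes that reached the minimum level in fibroblasts, 5.83% were called higher and 9.31% lower. Cdkn1a, which encodes the cell cycle inhibitor p21, was at 348 UPM (interval 343 to 353) after bleomycin and 356 UPM (349 to 364) after saline. The ratio of Cdkn1a was 0.98, on the log2 scale -0.03. Its level in bleomycin fibroblasts was 0.919 times the lowest level in another lineage of that library, so every lineage carried the gene.

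The highest ratios were those of Phlda3, Bax and Trp53inp1, which act in cell death and survival signalling. Phlda3, whose product blocks the membrane docking of the kinase Akt, was at 359 UPM (353 to 364) after bleomycin and 214 UPM (208 to 220) after saline, a 1.68-fold ratio (1.63 to 1.73). Bax, which permeabilises the outer mitochondrial membrane, was at 220 UPM (216 to 224) after bleomycin and 131 UPM (126 to 135) after saline, also 1.68-fold (1.62 to 1.75). Of the 7 targets over the minimum level these 2 were higher at 1.5-fold, a rule that called 13.5% of genes higher and 17.7% lower in fibroblasts. Trp53inp1, an autophagy and cell death regulator, fell short of 1.5-fold, with 35.9 UPM after bleomycin and 24.4 UPM after saline (1.47-fold, 1.34 to 1.61). Eda2r, a receptor of the tumour necrosis factor family, was too low to be called, with 6.06 and 6.22 UPM.

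Among the feedback genes, Mdm2 was at 40.2 UPM (38.5 to 42.0) after bleomycin and 30.1 UPM (28.0 to 32.3) after saline, 1.34-fold. Ccng1, cyclin G1, which helps Mdm2 restrain p53, was at 55.2 UPM after bleomycin and 51.3 UPM after saline. p53's own transcript, Trp53, was at 59.9 and 48.0 UPM (1.25-fold, 1.17 to 1.33). Mdm4, the partner of Mdm2 that masks p53, was at 22.9 and 23.9 UPM. p53 is controlled mainly at the protein level, which these counts do not read. Zmat3, an RNA-binding target, was at 26.9 UPM after bleomycin and 21.8 UPM after saline. The stress-responsive targets Sesn2 (6.87 and 6.06 UPM) and Gdf15 (9.28 and 10.4 UPM) were below the minimum level. The median log2 ratio over the 10 genes was 0.22, beside -0.05 over all 13943 genes measured in fibroblasts. Bleomycin fibroblasts were also deeper, with a median of 13611 UMIs per cell against 6830 in saline fibroblasts. The part of depth in these ratios was read by thinning each cell to 2000 UMIs, as given next.

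**Figure D1:**
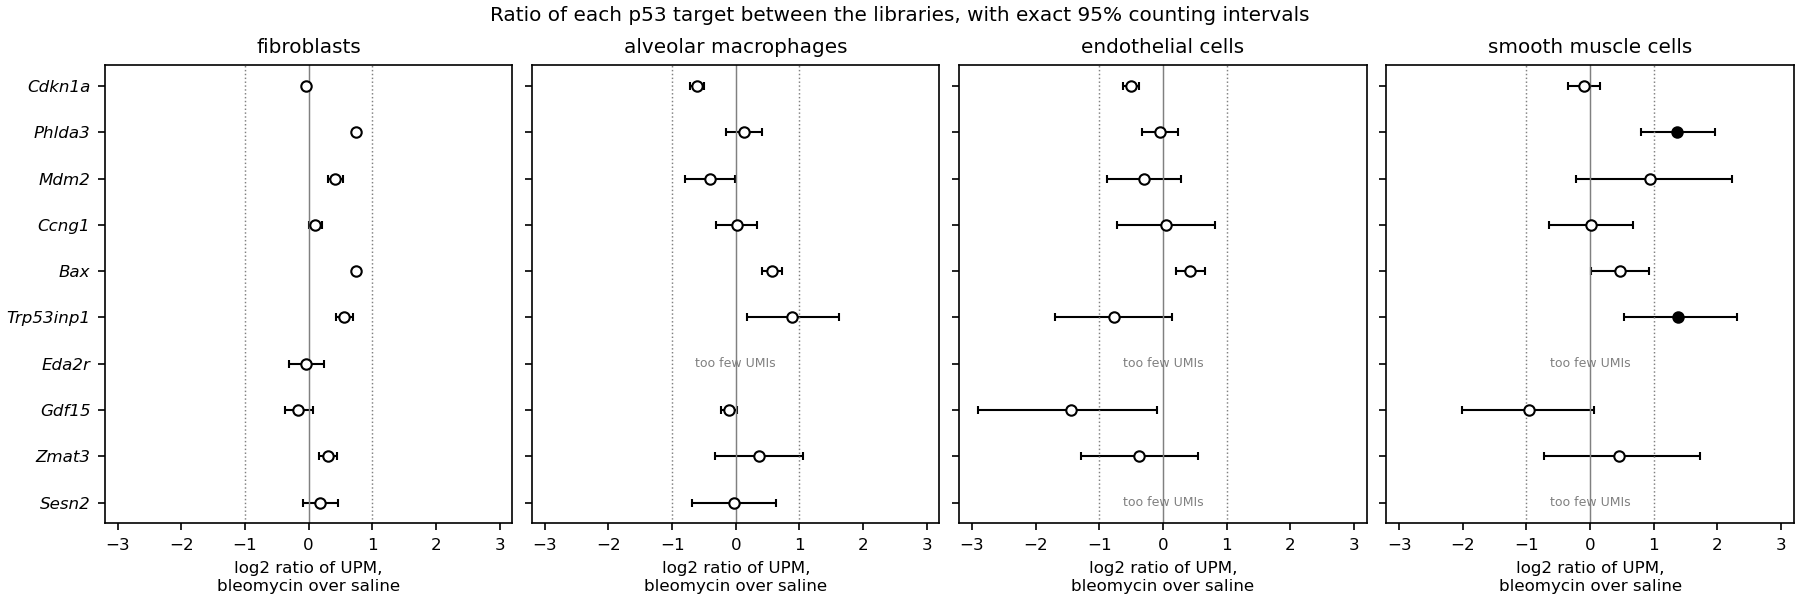
Log2 ratio of UPM, bleomycin over saline, for each p53 target (rows) in 4 cell classes (panels), with exact 95% counting intervals as bars and dotted lines at 2-fold. Filled points passed the 2-fold rule, which only Phlda3 and Trp53inp1 did, in smooth muscle cells.

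At equal depth Phlda3 and Bax again had the widest gaps, in percentage points, in the share of fibroblasts with a UMI. Phlda3 was found in 45.4% (43.7 to 47.0) of thinned bleomycin fibroblasts and 30.5% (29.0 to 32.1) of saline ones, and Bax in 33.4% and 22.5%. Cdkn1a was found in 33.7% (32.2 to 35.3) and 36.8% (35.2 to 38.4). Mdm2 was found in 7.03% and 5.84%, and Ccng1 in 9.81% and 9.71%. Phlda3 was found in 5.32% of saline epithelial cells at the same depth, the lowest share among the classes. Gdf15 and Sesn2 shares in fibroblasts were 1.31% and 1.42% after bleomycin and 1.80% and 1.01% after saline. Saline epithelial cells held them in 2.34% and 2.13%. Gdf15 was uneven over the fibroblast states, from 1.66 UPM (0.607 to 3.603) in bleomycin cluster 25 to 19.05 UPM (16.6 to 21.8) in bleomycin cluster 23. Eda2r had a UMI in 1.19% of bleomycin and 0.955% of saline fibroblasts, and in 0 of 337 and 0 of 640 alveolar macrophages, which allows a share of up to 1.09% and 0.575% (exact binomial bound). That bound limits cells with a UMI at this depth, not cells that express the gene, and without thinning 1 Eda2r UMI was found in the macrophages of each library. Without thinning, Phlda3 was found in 89.8% and 64.4% and Cdkn1a in 67.5% and 60.1% of fibroblasts. Fibroblasts with at least 3 of the 10 targets at 2000 UMIs made up 17.4% (16.2 to 18.7) after bleomycin and 10.2% (9.27 to 11.3) after saline.

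**Figure D2:**
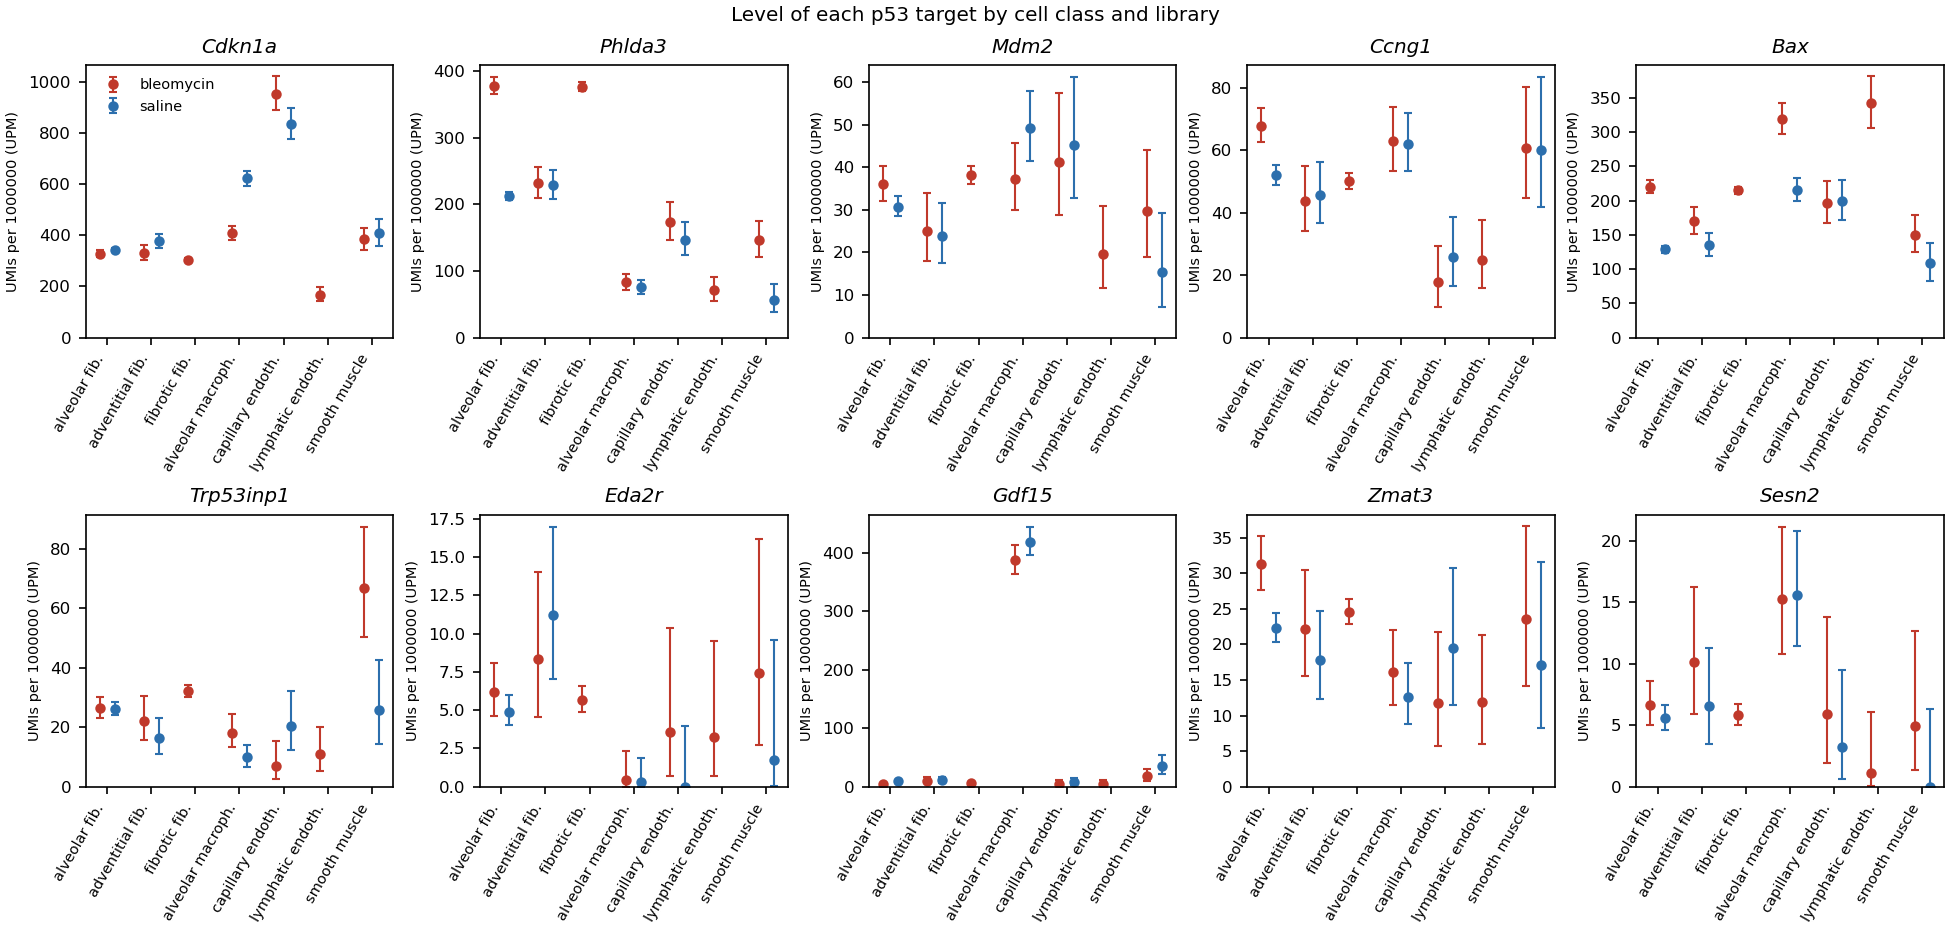
Level of each p53 target in UPM (y axis, from 0, a scale of its own per gene) in 7 cell classes with at least 50 cells, for the bleomycin library (red, left) and the saline library (blue, right), with exact 95% Poisson intervals. Phlda3 and Bax are separated in alveolar fibroblasts, Gdf15 stands out in alveolar macrophages of both libraries, and Cdkn1a is lower in alveolar macrophages after bleomycin.

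The bulk of the bleomycin fibroblasts belonged to states that the saline library scarcely held, so the same named kinds were also compared. In alveolar fibroblasts (775 bleomycin and 2808 saline cells), Phlda3 was at 378 UPM after bleomycin and 213 UPM after saline (1.78-fold, 1.70 to 1.86), and Bax at 220 and 129 UPM (1.71-fold, 1.61 to 1.81). They were again the 2 genes past 1.5-fold, of 7 targets over the minimum level, where 9.34% of genes were higher and 10.3% lower. Ccng1 in alveolar fibroblasts was at 67.9 UPM (62.6 to 73.6) after bleomycin and 52.0 UPM (49.0 to 55.2) after saline. Zmat3 there was at 31.3 and 22.3 UPM. Cdkn1a was at 328 and 341 UPM. In adventitial fibroblasts (177 and 327 cells), Phlda3 was at 232 UPM (209 to 256) after bleomycin and 229 UPM (208 to 251) after saline, and none of the 4 targets over the minimum level (Cdkn1a, Phlda3, Bax and Ccng1) passed 1.5-fold, where 8.29% of genes were higher and 16.7% lower. Different clusters held most of the alveolar fibroblasts in each library, cluster 3 after bleomycin and clusters 8, 7, 2, 1 and 18 after saline. Fibrotic fibroblasts numbered 1686 after bleomycin and 30 after saline, too few to compare. In bleomycin fibrotic fibroblasts Phlda3 was at 376 UPM, Bax at 215 UPM and Cdkn1a at 304 UPM.

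Within each library the fibroblast states differed more in Cdkn1a than the libraries did. After bleomycin the levels ran from 130 UPM (119 to 143) in cluster 25, led by Col11a1 and Cthrc1, and 165 UPM (153 to 177) in the cycling cluster 17, to 480 UPM (467 to 493) in cluster 23, led by Cfd and Pappa. After saline they ran from 119 UPM (109 to 129) in cluster 7, led by Slc7a10 and Colq, to 624 UPM (602 to 646) in cluster 2, led by Gdf10, Tnfaip6 and Il6. Trp53inp1 was at 55.1 UPM (50.9 to 59.6) in cluster 23 and 50.7 UPM (46.8 to 54.8) in cluster 24, against 15.2 to 25.7 UPM in the other 5 bleomycin clusters and 14.5 to 33.6 UPM in the 7 saline ones. Phlda3 spread less, from 232 to 430 UPM over the bleomycin clusters and from 177 to 310 UPM over the saline ones. The clusters were made from these cells with the targets among the genes, and all but the adventitial cluster 4 came nearly wholly from a single library, so these levels are a description.

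**Figure D3:**
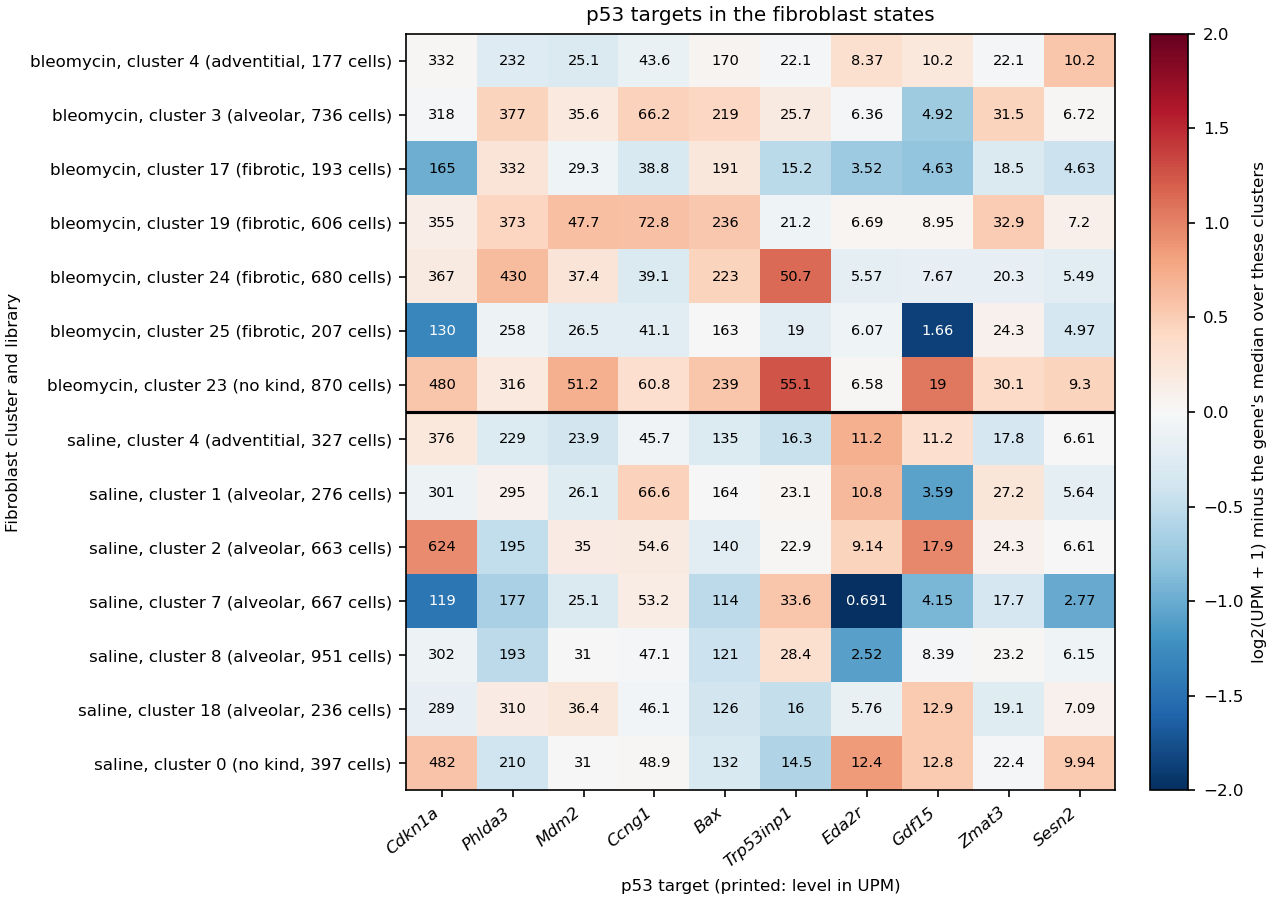
Level in UPM (printed) of the 10 p53 targets (columns) in fibroblast clusters (rows), coloured by log2(UPM + 1) minus the gene's median over the rows. Each of the 14 rows is a cluster in a library with at least 50 of its cells, bleomycin above the line and saline below. Adventitial cluster 4 has a row in both libraries. Cdkn1a is lowest in bleomycin cluster 25 and saline cluster 7, and Trp53inp1 is highest in bleomycin clusters 23 and 24.

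Across clusters of all lineages the level of Cdkn1a was most like that of early response genes such as Klf4, Ier5 and Fosl2. A cluster was counted here once for each library in which it had at least 50 cells, which gave 27 over all lineages and 14 of fibroblasts. Over the 27, 9759 genes were ranked by Pearson correlation with Cdkn1a on the log2(UPM + 1) scale. The first 5 were Klf4 (0.77), Ier5 (0.76), Midn (0.75), Phf23 (0.75) and Fosl2 (0.74). Over the 14 fibroblast clusters, Cdkn1a correlated with Gdf15 at 0.82, Sesn2 at 0.76 and Eda2r at 0.68, all below the minimum level in fibroblasts. The other targets ran from 0.07 (Phlda3) to 0.48 (Mdm2). The correlation of Cdkn1a with the summed immediate early and dissociation genes was 0.60 over those 27 clusters and 0.49 over the 14 fibroblast clusters. It was 0.62 over the 7 bleomycin fibroblast clusters and 0.71 over the 7 saline ones. Over the 7 bleomycin clusters Eda2r (0.91), Sesn2 (0.87), Zmat3 (0.72) and Ccng1 (0.64) had higher values with this list than Cdkn1a. Gdf15 (0.86) did over the 7 saline ones, and the remaining targets had lower values. That list summed to 7738 UPM in bleomycin fibroblasts and 22730 UPM in saline fibroblasts, with 16 of its 22 genes lower after bleomycin and none higher. Fosb was at 103 UPM after bleomycin and 687 UPM after saline, Nr4a1 at 144 and 723 UPM, Egr1 at 287 and 1355 UPM, and the chaperone gene Dnajb1 at 94.3 and 389 UPM. The part of this difference in the Cdkn1a ratio between libraries was not tested. Phlda3 was most like Arfgap3 (0.88), Nnmt (0.87), Slc39a13 (0.86), Fam195b (0.86) and Sra1 (0.85). Its correlation with the immediate early sum was -0.70 over the 14 fibroblast clusters, -0.30 over the 7 of the bleomycin library and -0.42 over the 7 of the saline library. Its correlation with the clusters' median UMI count was 0.72 over the 14, 0.41 over the 7 bleomycin and 0.40 over the 7 saline clusters. With Bax it was 0.84 over the 14. Clusters of a library share its depth and its handling.

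Inside single fibroblasts more of the targets were found together with Cdkn1a in the bleomycin library than in the saline one. Each fibroblast was thinned to 2000 UMIs, and the cells with a Cdkn1a UMI (1186 bleomycin, 1310 saline) were set against those without (2330 and 2252). After bleomycin, 7 of the other 9 targets were found at least 1.5 times as often in cells with Cdkn1a, where 5.88% of 10476 genes were (6.12% with ratios taken within clusters). After saline, 2 of 9 were (Gdf15 and Sesn2), where 4.57% of 10502 genes were (3.92% within clusters). With cells thinned to 1000 UMIs the counts were 8 and 4. Without the 5 cells richest in Cdkn1a they were 6 and 2. Sesn2 in bleomycin fibroblasts (ratio of 1.501 within clusters) and Trp53inp1 in saline fibroblasts (1.498) lie at the threshold. This comparison was added after the data had been seen, and cells of 1 library are not replicates, so the difference between the libraries is given as values and was not tested.

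As a ratio of shares after bleomycin, Ccng1 showed the widest contrast among the better detected genes (2.52). In percentage points Phlda3 and Bax had wider gaps. After bleomycin Ccng1 was found in 16.4% (14.3 to 18.6) of fibroblasts with Cdkn1a and 6.48% (5.51 to 7.56) of those without. After saline it was found in 10.5% (8.85 to 12.2) with and 9.28% (8.11 to 10.6) without. Mdm2 was found in 10.96% (9.24 to 12.9) with and 5.02% (4.17 to 5.99) without after bleomycin, and in 7.25% (5.91 to 8.79) with and 5.02% (4.15 to 6.002) without after saline. Zmat3 was found in 7.50% with and 3.82% without after bleomycin, and in 4.35% with and 3.95% without after saline. For Ccng1 and Zmat3 the intervals with and without Cdkn1a were apart after bleomycin and overlapped after saline. The share of all genes with intervals apart was not counted, so this describes these genes only. Trp53inp1 was found in 9.70% with and 5.45% without after bleomycin, and in 5.73% with and 4.22% without after saline. Eda2r was found in 2.19% (1.44 to 3.196) with and 0.687% (0.393 to 1.11) without after bleomycin, and in 0.992% and 0.933% after saline. Gdf15 was found more often with Cdkn1a in both libraries, in 2.87% with and 0.515% without after bleomycin and in 3.13% with and 1.02% without after saline. Sesn2 was found in 1.85% with and 1.20% without after bleomycin, and in 1.45% with and 0.755% without after saline. Phlda3 was found in 54.1% with and 40.9% without after bleomycin, and in 33.4% with and 28.9% without after saline. Bax was found in 40.6% with and 29.7% without after bleomycin, and in 26.9% with and 19.9% without after saline.

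**Figure D4:**
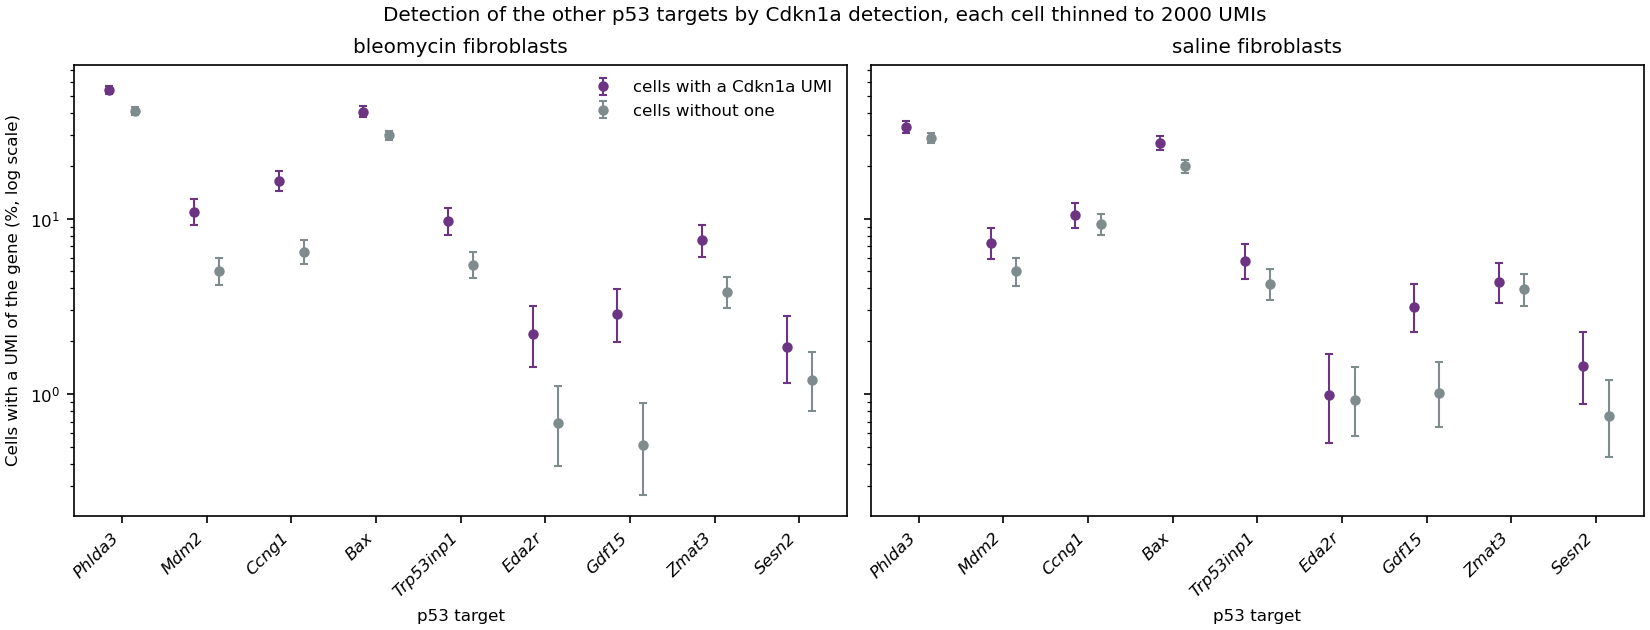
Share of fibroblasts with a UMI of each other p53 target (y axis, percent, log scale) among cells with a Cdkn1a UMI (purple, left) and without one (grey, right), in bleomycin (left panel) and saline (right panel) cells thinned to 2000 UMIs, with exact 95% binomial intervals. In bleomycin fibroblasts the 2 intervals are apart for every gene but Sesn2, and in saline fibroblasts they are apart for Bax and Gdf15 and overlap for the other genes. The saline overlap is narrow for Phlda3 (lower bound with Cdkn1a 30.81%, upper bound without 30.83%) and Mdm2 (5.91% and 6.002%). Intervals cover the counting of cells in 1 library, and the share of all genes with intervals apart was not counted.

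The contrast was also seen within fibroblast clusters, though unevenly. Bleomycin fibroblasts held on average 1.57 other targets with Cdkn1a and 0.854 without in cluster 23, 1.38 and 1.08 in cluster 24, and 1.06 and 0.993 in the cycling cluster 17. Saline fibroblasts held 1.27 with and 0.914 without in cluster 1, and 0.823 and 0.757 in cluster 7. Taken within clusters, the detection ratio in bleomycin fibroblasts was 2.63 for Ccng1, 2.21 for Mdm2, 1.99 for Zmat3 and 1.61 for Trp53inp1, against 1.17, 1.35, 1.09 and 1.498 in saline fibroblasts. Ranking all 4412 genes found in at least 5% of bleomycin fibroblasts by this ratio, a rule chosen after the values were seen, placed Ccng1 at rank 1, Mdm2 at rank 3, Zmat3 at rank 4 and Trp53inp1 at rank 12. Aen (apoptosis enhancing nuclease) at rank 2, Dcxr at rank 5, Ephx1 at rank 6 and Plk2 at rank 8 are all on the list of other p53 targets. Bax and Phlda3 were at ranks 86 and 136. Not all leading genes were p53 targets: Tnfaip6 was at rank 7, Cxcl1 at rank 10 and Ddit3 at rank 13. In saline fibroblasts, with 4549 genes ranked, the first 5 were Otud1, Ercc1, Xrn1, Ppp1r10 and Ephx1, the last of them on the list of other p53 targets. Ccng1 was at rank 324, Mdm2 at rank 43, Bax at rank 26 and Phlda3 at rank 269. Zmat3, Trp53inp1 and Aen were found in under 5% of saline fibroblasts and had no rank there, so the rankings do not hold the same targets. Their saline ratios were 1.09, 1.498 and 1.60, beside 1.63 for Otud1 at rank 1.

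Of the other p53 targets, 25 in each library were found in at least 20 fibroblasts. Within clusters 7 of the 25 were found at least 1.5 times as often with Cdkn1a after bleomycin (Aen, Plk2, Dcxr, Psrc1, Ephx1, Gadd45a and Ckap2), and 3 of 25 after saline (Aen, Psrc1 and Ephx1). Over all genes 6.12% were after bleomycin and 3.92% after saline. Aen was found in 11.05% with and 4.98% without after bleomycin, and in 5.57% with and 3.42% without after saline. Dcxr, an enzyme of sugar metabolism, was found in 10.8% with and 5.58% without after bleomycin, and in 7.10% with and 6.53% without after saline. Plk2, a p53-induced kinase, was found in 8.68% with and 5.45% without after bleomycin, and in 10.4% with and 10.7% without after saline. In sum over fibroblasts Dcxr was at 38.3 UPM after bleomycin and 39.0 UPM after saline, and Plk2 at 43.0 and 64.8 UPM, so neither was higher after bleomycin in the pooled level. Of the 22 immediate early and dissociation genes, 2 reached 1.5 within clusters after bleomycin (Egr2 and Atf3) and 0 after saline.

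Taken as a sum, the other 9 targets were also more abundant at each step of Cdkn1a. Fibroblasts with 0, 1 to 2, 3 to 5 and at least 6 Cdkn1a UMIs per 2000 held on average 1.19, 1.74, 2.82 and 4.86 UMIs of the other 9 targets after bleomycin, and 0.837, 1.05, 1.40 and 1.97 after saline. The intervals in the highest step were 4.32 to 5.46 after bleomycin and 1.55 to 2.48 after saline. That step held 59 bleomycin fibroblasts (1.68%) and 37 saline ones (1.04%). At least 3 of the other targets were found in 59.3% of those 59 cells and in 8.11% of those 37. Over the same steps Mdm2 was at 25.5, 44.1, 102 and 305 UPM after bleomycin, and at 25.3, 34.1, 50.4 and 27.03 UPM after saline, where the last value rests on 2 UMIs. Phlda3, Ccng1 and Bax were higher at each step in both libraries, and Trp53inp1, Gdf15 and Sesn2 after bleomycin only. In the highest step Eda2r and Zmat3 were lower than in the step before it after bleomycin. After saline Mdm2, Trp53inp1, Eda2r, Gdf15, Zmat3 and Sesn2 were lower there, all on few UMIs. Immediate early genes went up with Cdkn1a in both libraries, from 15.3 to 24.7 UMIs per cell over the bleomycin steps and from 41.3 to 68.3 over the saline ones. Cell cycle genes summed to 0.811 UMIs per bleomycin cell without Cdkn1a and 0.373 in the highest step.

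**Figure D5:**
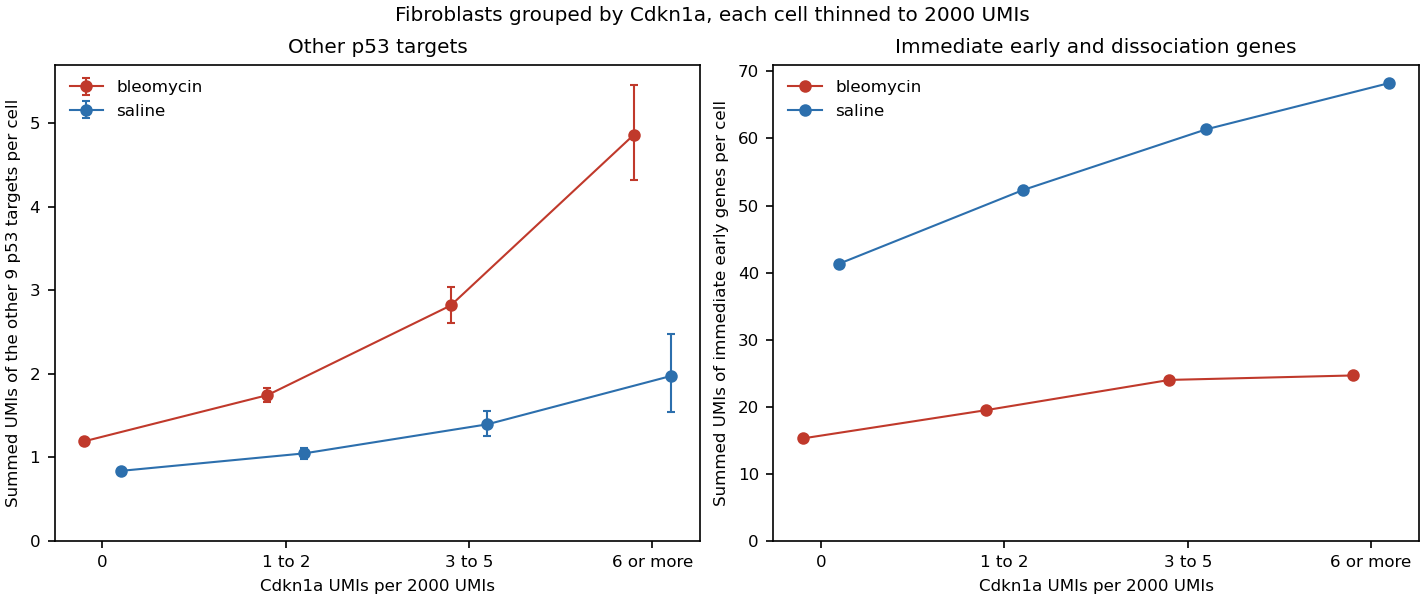
Fibroblasts thinned to 2000 UMIs and grouped by their Cdkn1a UMIs (x axis), for bleomycin (red) and saline (blue). The left panel gives the mean summed UMIs of the other 9 targets per cell with exact 95% Poisson intervals, 4.86 after bleomycin and 1.97 after saline in the highest step, and the right panel the mean summed UMIs of immediate early genes.

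Cells in the highest Cdkn1a step came from several states. After bleomycin they were 27 of 870 cells in cluster 23 (3.10%, 2.05 to 4.48), 12 of 606 in fibrotic cluster 19 (1.98%), 10 of 736 in alveolar cluster 3 (1.36%), and 0 of 193 in the cycling cluster 17, which allows up to 1.89%. After saline 22 of the 37 were in cluster 2, where immediate early genes summed to 34148 UPM, and 0 of 667 were in cluster 7, which allows up to 0.552%. The bleomycin fibroblast richest in Cdkn1a held 216 UMIs of it (1.19% of the gene's UMIs in that class), and the richest saline one 39.

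Beyond the 10 genes, 34 of 36 other p53 targets were measured in fibroblasts (median log2 ratio -0.02), and 14 reached the minimum level. None of the 14 passed 2-fold in either direction. At 1.5-fold 3 were higher and 2 lower, a rule that called 13.5% of genes higher and 17.7% lower. Rps27l, a ribosomal protein paralogue induced by p53, was at 662 UPM after bleomycin and 401 UPM after saline, Ptp4a3 at 46.6 and 27.0 UPM, and Ak1 at 112 and 68.5 UPM. The death receptor gene Fas was among the lower ones, with 40.6 UPM after bleomycin and 70.4 UPM after saline. Of 17 measured genes for p53 and its regulators 6 reached the minimum level, and none of these passed. Crebbp was at 35.1 and 46.9 UPM, Kat5 at 16.9 and 21.6 UPM and Usp7 at 23.0 and 27.3 UPM. Of 17 genes of the double-strand break response 2 reached the minimum level, Rad50 and H2afx, and 1 was lower. Rad50, of the break-sensing complex, was at 18.8 UPM (17.6 to 20.01) after bleomycin and 49.7 UPM (47.0 to 52.5) after saline. H2afx, the histone variant marked at breaks, was at 36.0 and 21.9 UPM.

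In alveolar macrophages, the resident phagocytes of the air spaces, 6 of the 10 targets reached the minimum level. None of the 6 passed 2-fold, where 2.9% of 5213 genes were higher and 5.16% lower. Cdkn1a was lower at 1.5-fold, with 408 UPM (383 to 434) after bleomycin and 622 UPM (594 to 651) after saline, a rule that called 16% of genes lower and 7.56% higher there. Different clusters held most of these macrophages in each library. Cluster 22 held 308 of the 337 bleomycin cells, and clusters 6 and 10 held 553 and 81 of the 640 saline cells. At equal depth Cdkn1a was found in 42.7% (37.4 to 48.2) of bleomycin macrophages and 67.8% (64.0 to 71.4) of saline ones. Immediate early genes summed to 7277 UPM after bleomycin and 12950 UPM after saline in these cells, and their part in the Cdkn1a difference was not tested. Bax ran the other way, with 319 UPM (297 to 342) after bleomycin and 215 UPM (199 to 233) after saline, 1.48-fold. Gdf15, a secreted stress cytokine, was at 389 UPM (364 to 414) after bleomycin and 420 UPM (397 to 444) after saline, 91.8 and 40.5 times its lowest level in another lineage of the same library. It was found in 46.6% and 45.8% of thinned macrophages. Mdm2 was at 37.2 and 49.3 UPM, Phlda3 at 82.8 and 75.4 UPM and Ccng1 at 62.9 and 62.2 UPM. Below the minimum level were Trp53inp1 with 18.2 and 9.85 UPM, Zmat3 with 16.1 and 12.6 UPM, Sesn2 with 15.3 and 15.6 UPM, and Eda2r. Trp53 was at 43.9 and 44.2 UPM and Mdm4 at 18.6 and 21.7 UPM. The median log2 ratio over all genes measured in macrophages was -0.12. In macrophages with a Cdkn1a UMI after bleomycin, Ccng1 was found in 11.8% against 12.4% of those without, and Mdm2 in 6.94% against 10.4%. Phlda3 was found in 13.9% with and 12.4% without, Bax in 55.6% and 44.04%, Zmat3 in 4.17% (1.54 to 8.85) and 0.518% (0.0131 to 2.85), and Trp53inp1 in 4.17% and 1.55%. All 6 pairs of intervals overlapped, with 144 macrophages that had a Cdkn1a UMI and 193 that had none. Intervals from so few cells are wide, so the overlap does not show equal shares. By the 1.5-fold detection rule used in fibroblasts, Zmat3 (8.04) and Trp53inp1 (2.68) would pass. They rest on 6 cells each with Cdkn1a, and on 1 and 3 cells without. The other targets did not reach 1.5, and the share of all genes was not counted in macrophages. Fibrotic fibroblast markers summed to 3683 UPM in bleomycin macrophages and 361 UPM in saline ones. That list includes Spp1, a leading gene of cluster 22 among the immune clusters, so the sum does not measure stray fibroblast RNA alone.

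In endothelial cells 7 of the 10 targets were below the minimum level, so that Cdkn1a, Phlda3 and Bax alone could be called. None of these passed 1.5-fold, where 21.5% of 4957 genes were higher and 17.8% lower (9.26% and 9.84% at 2-fold). Cdkn1a was at 537 UPM (505 to 571) after bleomycin and 759 UPM (710 to 809) after saline. The make-up of the class differed: lymphatic cells were 70 of 186 endothelial cells after bleomycin and 21 of 155 after saline. In general capillary cells alone (98 and 108 cells), Cdkn1a was at 952 UPM (887 to 1020) after bleomycin and 834 UPM (776 to 895) after saline, the opposite order. In lymphatic cells of the bleomycin library it was at 167 UPM. Phlda3 over all endothelial cells was at 140 and 144 UPM. Bax was at 267 and 198 UPM over all endothelial cells, 196 and 199 UPM in capillary cells, and 342 UPM in bleomycin lymphatic cells. Among the 7 low targets Mdm2 was at 30.7 and 37.8 UPM, Ccng1 at 21.2 and 20.6 UPM, Trp53inp1 at 11.1 and 18.9 UPM, and Zmat3 at 12.7 and 16.5 UPM. Eda2r had 7 and 0 UMIs, Gdf15 8 and 14, and Sesn2 9 and 4. Trp53 was at 91.5 and 84.7 UPM and Mdm4 at 25.9 and 27.2 UPM. Alveolar fibroblast markers summed to 179 UPM in bleomycin and 3614 UPM in saline endothelial cells.

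Of the 4 classes compared, smooth muscle cells had the most calls. Of the 4 targets over the minimum level 2 were higher, where 6.18% of 2297 genes were higher and 3.79% lower. Phlda3 was at 146 UPM (121 to 175) after bleomycin and 56.7 UPM (39.0 to 79.6) after saline, a 2.58-fold ratio (1.74 to 3.91) from 118 and 33 UMIs. The bleomycin cell with the most Phlda3 gave 18 of the 118 UMIs (15.3%), and the 5 highest cells gave 48.3%. Trp53inp1 was at 66.8 UPM (50.2 to 87.2) after bleomycin and 25.8 UPM (14.4 to 42.5) after saline, 2.59-fold (1.44 to 4.95), from 54 UMIs in 37 cells and 15 UMIs in 15 cells. Neither passed the rule when each cell was thinned to 2000 UMIs, with log2 ratios of 0.48 for Phlda3 and 1.43 for Trp53inp1, whose UMIs then missed the minimum. Thinned cells held Phlda3 in 11.1% and 8.82% and Trp53inp1 in 16.2% (9.53 to 24.9) and 5.88% (2.19 to 12.4). Cdkn1a was at 384 and 409 UPM and Bax at 149.7 and 108 UPM. The 6 targets below the minimum level were Ccng1 with 60.6 and 60.1 UPM, Mdm2 with 29.7 and 15.5 UPM, Eda2r with 6 and 1 UMIs, Gdf15 with 15 and 21, Zmat3 with 19 and 10, and Sesn2 with 4 and 0. Trp53 was at 42.1 and 49.8 UPM and Mdm4 at 34.6 and 30.9 UPM. Smooth muscle markers summed to 32538 UPM after bleomycin and 44052 UPM after saline, general fibroblast markers to 2913 and 2301 UPM, and erythroid markers to 4867 and 1.72 UPM. Their part in the 2 calls was not tested. Over all genes measured in smooth muscle the median log2 ratio was 0.11.

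In a smaller immune cluster named monocytes or interstitial macrophages (75 bleomycin and 85 saline cells), 1 of the 4 targets over the minimum level was called, Trp53inp1, which was lower. It was at 13.8 UPM (6.29 to 26.1) after bleomycin and 88.8 UPM (68.2 to 114) after saline, from 9 and 63 UMIs. The 63 saline UMIs lay in 17 of the 85 cells. The highest cell gave 18 of them (28.6%) and the 5 highest cells 73.0%. In the cluster 14.1% of 1983 genes were called lower and 11.9% higher. Plasma cell markers summed to 744 UPM after bleomycin and 9799 UPM after saline in this cluster, so it held different cells in each library.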

How the data were processed

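Single Cell 3' droplet libraries (10x Genomics, version 2 chemistry) from sorted live tdTomato-positive lung cells were used, 1 for bleomycin and 1 for saline. The deposited values are raw UMI counts per gene and barcode, made with Cell Ranger 2.1.1 on mm10, per the submitters' processing notes; the annotation release is not given in the sources used here. Deposited totals were 61537182 UMIs in 4473 bleomycin barcodes and 37570380 in 5455 saline barcodes.

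Barcodes with under 500 genes, under 1000 UMIs or over 10% mitochondrial UMIs were left out (5 bleomycin and 23 saline). The automatic threshold of Scrublet marked 4 and 8 barcodes, too few to be trusted, so the 160 and 237 with the highest scores were left out, the number expected at 0.8% per 1000 barcodes. Cells of both libraries were clustered together (scanpy 1.11.5, 2000 variable genes per library, 30 principal components, 15 neighbours, Leiden resolution 1) without integration. Clusters were named from marker lists. The naming thresholds, and leaving haemoglobin and immunoglobulin genes out of the leading genes, were chosen after the clusters were seen.

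UMIs were summed per class and library. Log2 ratios, bleomycin over saline, used a prior of 1 UPM; folds and their exact conditional binomial intervals used none. Levels have exact Poisson and shares Clopper-Pearson intervals, at 95%. Lists were summarised over genes with at least 20 UMIs in both libraries together. Every class compared had at least 50 cells per library. No test between groups was possible, each being 1 library. All 10 targets were named in the 4 main classes, with Trp53 and Mdm4, at most 4 genes per other list by size of ratio in fibroblasts, and the 5 genes most like Cdkn1a and Phlda3; exceptions were chosen after their values were seen. The other lists were 36 p53 targets, 19 p53 regulators (Cop1 had no row), 17 break response, 14 integrated stress response, 22 immediate early and dissociation, 20 cell cycle, and 21 cyclin-dependent kinase inhibitor and senescence genes. The 10 targets and these lists were chosen with earlier results of these data known. The call rule was tested on simulated data. Gene names are the files' own, and promoter sequences are from RefSeq on GRCm38.p6, the build that mm10 names. No genome sequence was used, so elements were sought in the promoter table only.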

Additional observations from a re-analysis of the deposited data

Results flagged for a closer look

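Trp53inp1 differed in opposite directions between the libraries in different cell classes. Its log2 ratio was 1.34 in smooth muscle cells and -2.61 in the cluster of monocytes or interstitial macrophages (75 bleomycin and 85 saline cells). In that cluster the 5 highest saline cells gave 73.0% of the saline UMIs of the gene. The difference between the classes was not tested. In the immune cluster monocyte markers summed to 9787 UPM after bleomycin and 1577 UPM after saline, and T or NK cell markers to 202 and 765 UPM. Clustered more finely (Leiden resolution 2, 69 and 33 cells), monocytes or interstitial macrophages had 6.32 and 6.54 UPM of Trp53inp1, from 4 and 2 UMIs. T or NK cells, 11 and 52 in number, had 59.3 UPM (21.8 to 129) and 151 UPM (116 to 194).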

How the results depend on the processing

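Of the counts of targets called, that in endothelial cells was 0 under every alternative run. At 1.5-fold the count was 2 in fibroblasts and 1 in alveolar macrophages, against 0 at 2-fold in both. In smooth muscle cells it was 0 with cells thinned to 2000 UMIs, against 2 without thinning; thinning leaves fewer UMIs. The number of targets whose share of fibroblasts differed at least 1.5-fold was 0 at 2000 UMIs, 2 at 1000 UMIs and 7 without thinning, where the libraries differ in depth. Targets found at least 1.5 times as often with Cdkn1a in saline fibroblasts numbered 4 at 1000 UMIs and 2 at 2000. In bleomycin fibroblasts that count was 7, and 6 to 8 under the alternatives, which were added after seeing the data. The 2 elements were found also with at most 1 mismatch. Of the ratios of single targets under the alternatives, 482 values kept their call, 33 moved, 3 became called and 2 were no longer called. The median log2 ratio of the targets in endothelial cells was -0.17 and turned sign under some alternatives, up to 0.13. Leaving out cycling clusters gave no other value in endothelial and smooth muscle cells, which had no cluster marked as cycling. Endothelial cells still held cell cycle genes, summing to 1378 UPM after bleomycin and 188 UPM after saline. Of the 14 such genes over the minimum level there, 13 were higher. In general capillary cells alone the sums were 630 and 194 UPM. A window of 1000 bases was not run, because no genome sequence was used here. No paired analysis was possible because each group has 1 library. With 1 library per group, mouse, batch and treatment cannot be told apart. A sum near 50 UMIs limits ratios in the small classes.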

Other observations

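In the saline library 470 epithelial cells allowed a look at the targets outside the classes compared, with 5 such cells after bleomycin. Ciliated cells (122 saline cells) had 153 UPM of Mdm2 (128 to 182) and 98.4 UPM of Trp53inp1 (78.2 to 122), the highest saline levels of both genes over the 15 clusters of at least 50 cells. Alveolar type 2 cells (309 saline cells) had 20.7 UPM of Mdm2 (14.6 to 28.4), 23.9 UPM of Trp53inp1 and 19.6 UPM of Phlda3 (13.7 to 27.1), the lowest Phlda3 level of those clusters. Cdkn1a was at 317 UPM in ciliated and 201 UPM in alveolar type 2 cells. The highest saline level of Cdkn1a, 862 UPM (780 to 949), was in an unnamed cluster led by Actc1 and Ednrb, with 31161 UPM of immediate early genes.

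Over all fibroblasts, other stress and cell cycle genes differed more than the p53 targets did. In the integrated stress response 9 of 14 genes reached the minimum level, 3 were higher and 1 lower, with a median log2 ratio of 0.60. Phgdh and Psat1, enzymes of serine synthesis, were at 49.7 and 22.2 UPM after bleomycin and 4.31 and 4.39 UPM after saline, Ddit4 at 63.0 and 19.8 UPM, and Ddit3 at 51.3 and 110 UPM. The list summed to 2673 UPM after bleomycin and 3639 UPM after saline. In alveolar fibroblasts alone 6 of its 14 genes reached the minimum level and none passed 2-fold in either direction, with a median log2 ratio of -0.14. Of 20 cell cycle genes 10 reached the minimum level over all fibroblasts, 8 were higher and none lower (median 1.75). Birc5, 1 of the higher ones, had 38.4 UPM after bleomycin and 5.48 UPM after saline. The cell cycle genes summed to 3906 UPM in the cycling cluster 17, 193 of the 3516 bleomycin fibroblasts, against 129 to 334 UPM in the other 6 bleomycin and 105 to 121 UPM in the 7 saline clusters. Over all genes in fibroblasts 5.83% were higher and 9.31% lower. Of 21 cyclin-dependent kinase inhibitor and senescence genes 16 reached the minimum level, 1 was higher and 4 lower (median -0.07). Mmp3 was at 220 UPM after bleomycin and 105 UPM after saline, Cxcl1 at 72.8 and 208 UPM, Il6 at 69.8 and 179 UPM, and Bcl2 at 15.7 and 34.1 UPM. Below the minimum level, and chosen after their values were seen, Cdkn2a had 3.63 UPM (189 UMIs) after bleomycin and 0.311 UPM (8 UMIs) after saline, and Cdkn2b had 11.4 and 1.83 UPM, a 6.23-fold ratio (4.62 to 8.57).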
